A study of Mus musculus with 23 samples.

Results

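Fatty acid oxidation and lipid handling genes were followed through every condition of a bulk RNA sequencing experiment on mouse pancreatic ductal adenocarcinoma (PDAC) cells. The set was chosen by gene symbol, as 37 named genes among the 27207 genes of the count table. The rule used no measured value, but the set was drawn up with earlier results of these data known. All 37 had a row, and 33 had enough counts to be tested. KC cells came from mice with a Ptf1a Cre/+ driver and KPC cells from mice with a Pdx1 Cre/+ driver. Both drivers act in the pancreatic lineage, every group therefore carried Cre, and there was no group of normal pancreas. The lines differed in further alleles as well as in the driver. Each genotype was represented by 1 line, so that genotype and line cannot be told apart. There were 6 groups. KC cells were grown flat, in 2D culture (n = 6). As organoids in floating collagen I they were taken at day 7 (n = 3) and at day 13, the latter in batch 1 (n = 5) and in batch 2 (n = 3). A further group was KC organoids of batch 1 in growth factor-reduced Matrigel at day 13 (n = 3), and the last was KPC organoids of batch 2 at day 13 in collagen (n = 3). The 2D cells and the day 7 organoids belonged to batch 1. 2D cells were lysed directly, whereas organoids were first freed from their matrix with collagenase. The study describes its Matrigel replicates and its batch 1 collagen replicates of day 7 and day 13 as separate experiments with the 1 KC line. The labels do not say how replicates of the other groups were made, so that p-values measure only the spread between these libraries of 1 line each.

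Cells break fatty acids down to acetyl-CoA by β-oxidation. Acyl-CoA synthetases activate the fatty acid, the carnitine shuttle carries it into mitochondria, and a cycle of dehydrogenation, hydration, a second dehydrogenation and thiolysis shortens it, with electrons passing to the respiratory chain through the electron transfer flavoprotein. Very long chains are first shortened in peroxisomes, fatty acid binding proteins carry fatty acids through the cytosol, and the PPAR nuclear receptors, when bound by fatty acids, switch on many of these genes through a DNA element built from repeats of one short motif. The 37 genes were described by these roles: activation and entry (8), the mitochondrial cycle (9), auxiliary enzymes for unsaturated chains (4), electron transfer (3), the peroxisome (5), uptake and binding (4), and regulators and targets (4).

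The PPAR element AGGTCANAGGTCA was searched on both strands of the RefSeq promoters (GRCm38.p6, 250 bases before to 50 bases after the start site), because many of the members are known PPAR targets. Promoters matched 31 of the 37 members by symbol, with 34 windows in all. None held the element without a mismatch. Among all 32851 promoters, 0.554% held it with at most 1 mismatch and 3.86% with at most 2, and 1 and 5 of the 34 member windows did. The single window at 1 mismatch was that of Fabp1. Whether a PPAR acts at any of these windows was not tested. The Etfa window held a match with 2 mismatches, and the windows of Cd36, Echs1 and Slc25a20 did too. Hadha and Hadhb, the subunits of one enzyme, lie head to head on chromosome 5 with 85 bases between their annotated gene ends in GENCODE M21. The sequences upstream of the start sites of Fabp1 (chr6:71199629-71199826, + strand) and Etfa (chr9:55512244-55512493, - strand), with the matched 13 bases in capitals (the element lies on the opposite strand in both), and the bases between Hadha and Hadhb (chr5:30155163-30155247, + strand), are:
Fabp1: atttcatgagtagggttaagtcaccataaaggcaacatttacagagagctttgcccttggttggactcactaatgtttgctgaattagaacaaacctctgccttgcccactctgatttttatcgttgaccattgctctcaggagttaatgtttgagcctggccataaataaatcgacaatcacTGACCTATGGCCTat
Etfa: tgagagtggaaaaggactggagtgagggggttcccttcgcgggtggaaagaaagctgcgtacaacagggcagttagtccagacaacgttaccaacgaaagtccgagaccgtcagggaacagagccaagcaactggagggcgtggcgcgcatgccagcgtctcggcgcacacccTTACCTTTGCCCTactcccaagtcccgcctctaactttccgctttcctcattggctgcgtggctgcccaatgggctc
Hadha-Hadhb: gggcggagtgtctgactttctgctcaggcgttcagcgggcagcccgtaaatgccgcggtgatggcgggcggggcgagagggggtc

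Libraries held 1221451 to 2471058 UMI counts, and the 3 counts compatible with a 0 amounted to 1.16 to 3.22 CPM (counts per 1000000) in a library. All CPM values are scaled with TMM factors. In 2D culture, replicates 1 to 3 stood apart from replicates 4 to 6. The chi-square statistic per degree of freedom between libraries was 21.6 to 33.7 across these sets and 1.27 to 2.90 within them, and the share of mitochondrially encoded transcripts was 4.99% to 5.76% in replicates 1 to 3 and 2.51% to 3.01% in replicates 4 to 6. The counts of members called against 2D cells are given with all 6 libraries and with each set alone. Other values against 2D rest on all 6 libraries unless a set is named. In batch 1 collagen at day 13, replicates 1 to 3 also stood apart from replicates 4 and 5, by less. The statistic was 4.645 to 6.76 across these sets and 2.06 to 3.11 within them. The mitochondrial share was 3.01% to 3.73% and 4.44% to 4.83%. Among members, Cpt1a, Slc25a20, Acsl3 and Fabp2 were higher in replicates 4 and 5 without overlap, and Acadvl, Etfdh and Hadhb were lower. Results are not given for these sets alone. The ductal epithelial markers Krt7, Krt8, Krt18, Krt19, Epcam, Cdh1 and Sox9 all had enough counts to be tested.

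As a mean, the 33 tested members were lowest in collagen at day 7 and highest in collagen at day 13 in batch 1. Each library was scored by the mean over members of the z score of log2 CPM, so that 0 is the mean of the 23 libraries. The score was -0.68 ± 0.040 (SD, n = 3) at day 7, -0.26 ± 0.043 (n = 3) in Matrigel, -0.13 ± 0.18 (n = 6) in 2D, 0.10 ± 0.033 (n = 3) in batch 2 collagen, 0.31 ± 0.14 (n = 3) in KPC organoids and 0.48 ± 0.15 (n = 5) in batch 1 collagen at day 13. Day 7 libraries lay below all others. The difference between day 7 and 2D was -0.55, and -0.11 by library size alone. Matrigel and 2D overlapped, as did 2D and batch 2 collagen, and KPC and batch 1 collagen, so that the ranges do not separate these neighbours in the order. 2D and batch 2 collagen met only in 2D replicate 4, at 0.067, and batch 2 replicate 3, at 0.062. In 2D culture, the score ran from -0.43 to -0.13 in replicates 1 to 3 and from -0.09 to 0.07 in replicates 4 to 6. The share of all counts that fell in the 37 members needs no scaling factor and gave nearly the same order: it was 0.267% to 0.283% at day 7, 0.322% to 0.329% in Matrigel, 0.338% to 0.343% in batch 2 collagen, 0.365% to 0.370% in KPC and 0.368% to 0.398% in batch 1 collagen at day 13. In 2D it was 0.235% to 0.248% in replicates 1 to 3, below day 7, and 0.340% to 0.348% in replicates 4 to 6, above day 7. In bulk RNA, fewer cells of a type and less RNA per cell cannot be told apart.

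**Figure D1:**
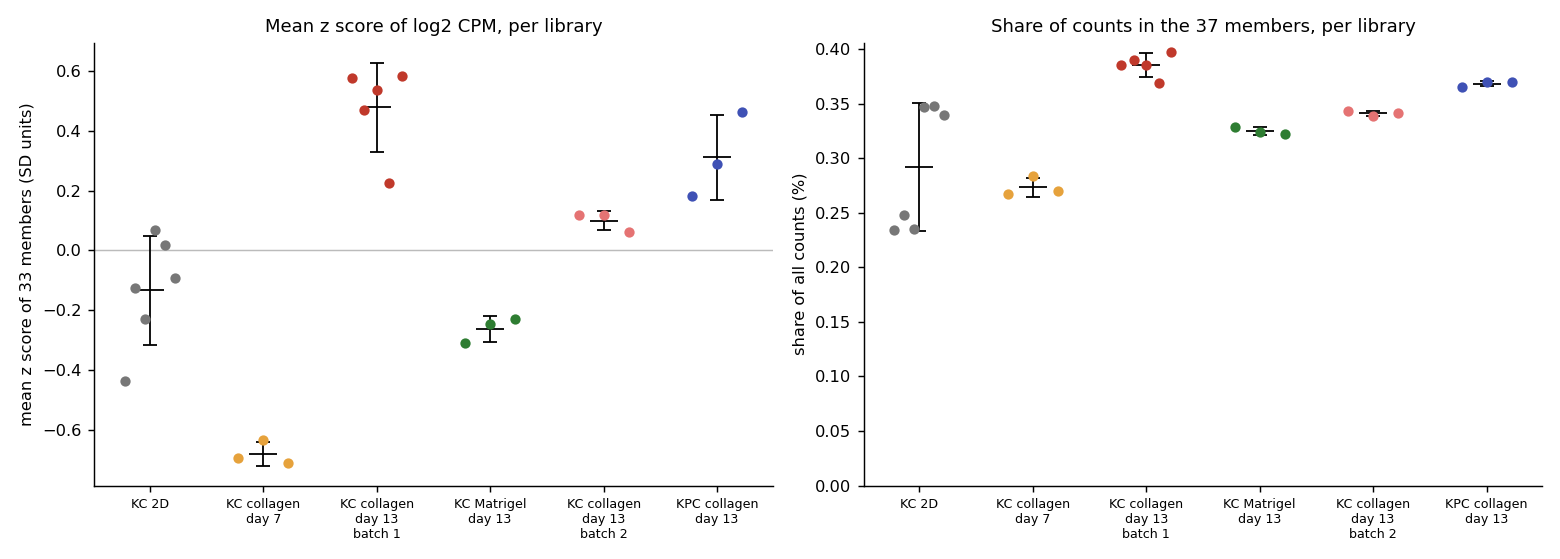
Left, mean z score of log2 CPM over the 33 tested members (y axis, SD units) in each library, by group. Right, share of a library's counts in the 37 members (y axis, %). Points are libraries, and bars are the group mean ± SD. The 3 day 7 libraries, at -0.71 to -0.63, lie below all others on the left, and the 2D libraries fall into 2 sets on the right.

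The roles did not follow one course. The mean z score of the mitochondrial cycle was -1.01 ± 0.078 at day 7 and 0.10 ± 0.31 in 2D, that of the electron transfer genes was -1.03 ± 0.32 and 0.40 ± 0.26, and that of the auxiliary enzymes was -1.15 ± 0.25 and 0.43 ± 0.39. Activation and entry genes stood at -0.01 ± 0.18 at day 7 and -0.38 ± 0.29 in 2D. Only 2 of the regulators and targets, Pparg and Angptl4, were tested, and their mean stood at 0.68 ± 0.38 and -1.18 ± 0.39. These roles had the higher mean at day 7. Library size alone reduced the difference between day 7 and 2D over all members, and role scores are not given with that scaling. Across the 23 libraries, the median Pearson r over the 528 pairs of tested members was 0.15, and it was 0.01 after the group means had been removed. Of the pairs, 101 (19.1%) had r above 0.5. The closest pair was Acadm and Ech1 (r = 0.86), and the most opposed was Echs1 and Pparg (r = -0.84). The points share library depth and group, and no test was made of these values.

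**Figure D2:**
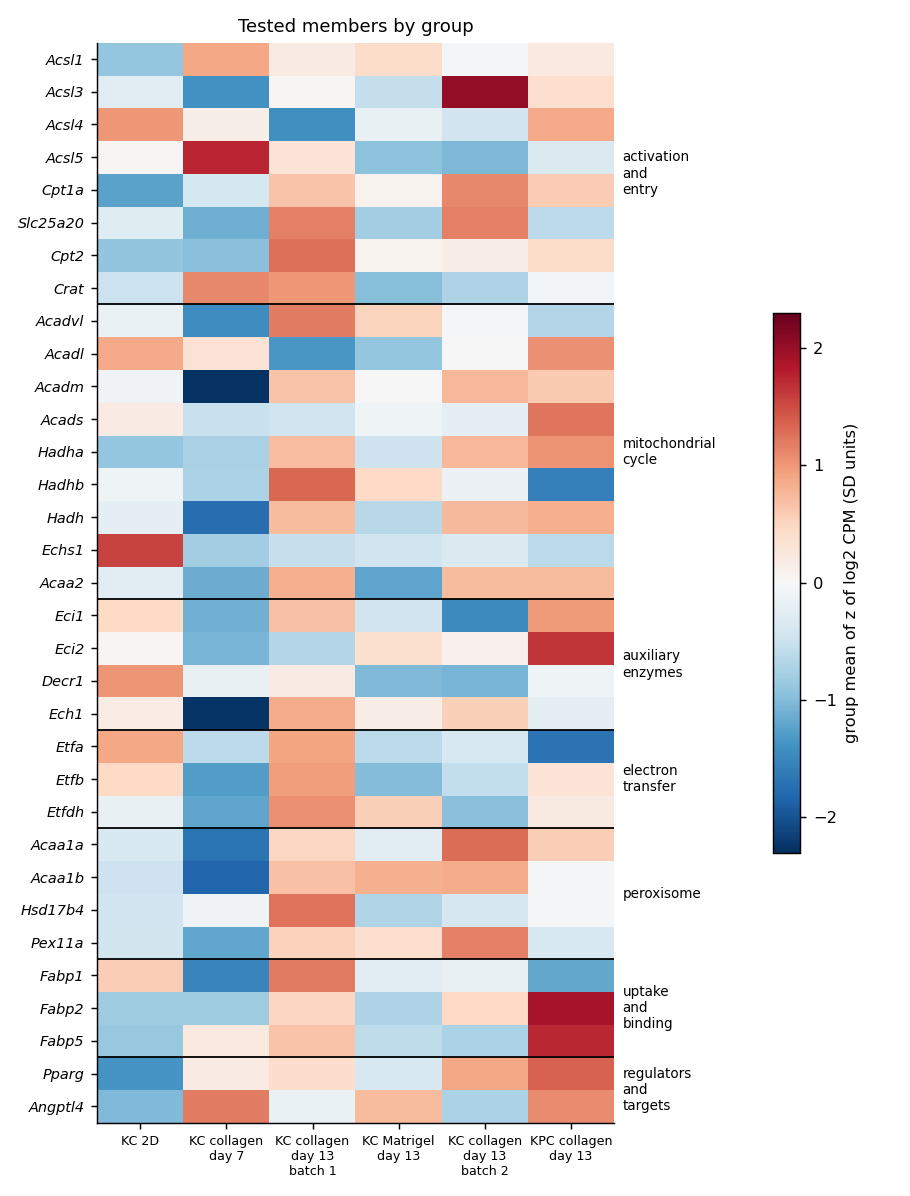
Group means of the z score of log2 CPM (colour, SD units) for each of the 33 tested members (rows, by role) in the 6 groups (columns). Blue prevails in the day 7 column among mitochondrial, electron transfer and peroxisomal genes, whereas Acsl5, Crat and Angptl4 are red there.

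The fatty acid binding proteins varied most, and each in its own way. Fabp1 (chr6:71199827-71205023, + strand, GENCODE M21 on GRCm38), the form of liver and intestine whose upstream sequence is given above, was measured at 17.7 CPM in the lowest 2D library, 35.5 at the 2D median and 48.3 in the highest. At day 7 it stood at 7.36, 5.42 and 4.69 CPM. In collagen at day 13 it stood at 48.7, 59.0, 57.9, 50.6 and 53.1 CPM in batch 1, and at 14.6, 18.8 and 21.99 CPM in batch 2. It was thus lowest at day 7 and highest in batch 1 at day 13, and these groups did not overlap with each other or with 2D. Matrigel libraries had 16.1, 14.4 and 21.0 CPM and KPC libraries 7.03, 8.38 and 8.45 CPM. Matrigel organoids therefore overlapped with batch 2 collagen and lay below batch 1 collagen, and KPC organoids lay below both. The log2 fold change was -2.62 ± 0.25 (SE; edgeR adjusted p = 1.52e-08) for day 7 against 2D, 3.21 ± 0.25 (adjusted p = 1.03e-10) for day 13 against day 7, and 0.59 ± 0.16 (adjusted p = 0.00392) for day 13 against 2D. With 2D replicates 1 to 3 alone the first was -2.15, and with replicates 4 to 6 alone it was -2.91. Fabp1 fell by 1.66 ± 0.21 in Matrigel against batch 1 collagen (edgeR adjusted p = 3.09e-06), by 1.202 ± 0.31 in KPC against KC (adjusted p = 0.00836), and by 1.54 ± 0.22 in batch 2 against batch 1 (adjusted p = 7.22e-06), all on the log2 scale. The batch difference was therefore about as large as the matrix difference, and against the 8 collagen libraries of both batches the Matrigel value was -1.28 (adjusted p = 0.0226) and the KPC value -2.36 (adjusted p = 0.000196). Matrigel organoids were in batch 1 only and KPC organoids in batch 2 only. Values against both batches, here and below, therefore also hold the batch difference.

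Fabp2 (chr3:122895072-122899506, + strand), the intestinal form, had 3.53 CPM in the lowest 2D library, 6.19 at the 2D median and 11.6 in the highest, and 9.32, 5.04 and 5.12 CPM at day 7. Batch 1 collagen at day 13 had 13.9, 20.6, 22.97, 36.7 and 35.2 CPM, batch 2 27.2, 26.5 and 18.0 CPM, Matrigel 7.48, 7.85 and 5.83 CPM, and KPC 72.2, 124 and 95.02 CPM. All collagen libraries of day 13 lay above every 2D, day 7 and Matrigel library, and the KPC libraries lay above all others. Fabp2 rose by 2.01 ± 0.32 on the log2 scale from day 7 to day 13 (edgeR adjusted p = 1.195e-05) and was higher by 2.03 ± 0.28 at day 13 than in 2D (adjusted p = 3.96e-06). In Matrigel it fell by 1.84 ± 0.32 (adjusted p = 0.00031), and it was higher by 2.03 ± 0.28 in KPC than in KC (adjusted p = 1.09e-05). Unlike Fabp1, Fabp2 did not pass the test between the batches.

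Fabp5 (chr3:10012548-10016607, + strand), the epidermal form, was low throughout and highest in KPC organoids. It had 0 to 3 counts in each 2D library, 7, 11 and 6 counts at day 7 (3.43, 4.26 and 2.56 CPM), 10, 10, 18, 9 and 11 counts in batch 1 collagen (4.64, 4.80, 8.61, 4.03 and 5.78 CPM) and 2, 5 and 1 counts in Matrigel (0.787, 2.18 and 0.583 CPM). Batch 2 KC collagen had 4, 0 and 1 counts (2.65, 0 and 0.666 CPM), and KPC had 22, 26 and 35 counts (14.1, 15.6 and 18.5 CPM). KPC libraries did not overlap with any other group, and batch 1 collagen did not overlap with Matrigel or batch 2. Because every 2D library was at or below 3 counts, changes against 2D are lower bounds, computed against the mean CPM of 3 counts in these libraries: Fabp5 was at least 1.5-fold higher at day 7 and at least 2.45-fold higher at day 13. The edgeR tests, made on the fitted fold changes and not on these bounds, gave adjusted p = 0.0109 and 0.000228. Day 7 and 2D overlapped, with 2.56 CPM in the lowest day 7 library and 2.96 CPM in the highest 2D library. The log2 difference was 3.76 ± 0.58 for KPC against KC (adjusted p = 5.00e-05; 1.95 and 0.00193 against both batches; 3.21 to 5.31 with single libraries left out, the highest without batch 2 replicate 1), -2.24 ± 0.63 for batch 2 against batch 1 (adjusted p = 0.00847) and -2.13 ± 0.55 for Matrigel against collagen (adjusted p = 0.0131). The last was lost without Matrigel replicate 1 (-1.86, adjusted p = 0.103) and against the collagen libraries of both batches (-1.71, adjusted p = 0.128), and the batch value was -3.76 without batch 2 replicate 1. Processed copies of Fabp5 are known in the mouse genome, and reads shared with them could not be told apart. Cd36, a membrane fatty acid transporter, had at most 2 counts in any library and was not tested.

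**Figure D3:**
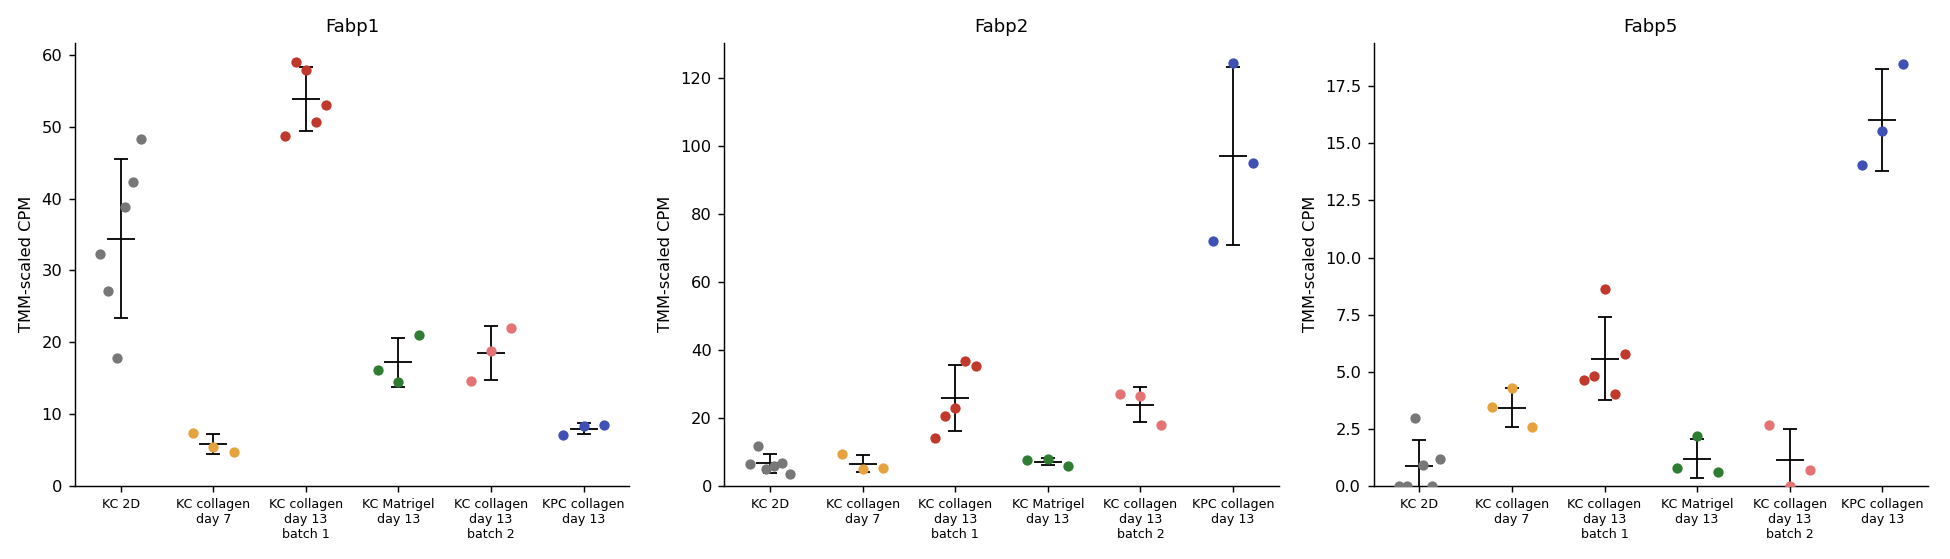
TMM-scaled CPM (y axes, linear, from 0) of Fabp1, Fabp2 and Fabp5 in each library, by group, with the group mean ± SD. Fabp1 is highest in batch 1 collagen at day 13 (48.7 to 59.0 CPM), whereas Fabp2 and Fabp5 are highest in KPC organoids.

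Markers of enterocytes, which make Fabp1 and Fabp2, were read beside them. Of 12 enterocyte markers, a list that holds no member, 9 had a row and 7 were tested, and their summed level was 1236 to 1314 CPM at day 7, 2850 to 3861 in 2D, 3827 to 4190 in batch 1 collagen at day 13, 3891 to 4120 in batch 2, 3010 to 3412 in Matrigel and 2628 to 3811 in KPC, with 0 to 2 of the 9 at 0 throughout a group. Most of the sum was Lgals4, a galectin, with group means of 1088 CPM at day 7, 3206 CPM in 2D and 3620 CPM in batch 1 collagen at day 13, and the markers did not move as one. At day 7 against 2D, Lgals4, Vil1 and Cdhr5 fell, Cdx2, Apob and Cdhr2 rose, and Alpi did not pass the test. Between the batches, Cdx2 fell, with means of 29.7 CPM in batch 2 and 60.4 CPM in batch 1, Alpi rose, with means of 81.7 and 27.1 CPM, and the other 5 did not pass. Of 7 hepatocyte markers, 4 had a row and 1, Ttr, was tested. Their sum was 37.7 to 70.0 CPM in KPC and at most 24.0 CPM elsewhere. Most of it in KPC was Ttr, with a mean of 50.2 CPM, and Alb was at 0 in all libraries. Of 7 adipocyte markers, 3 had a row and 1 was tested, with a sum of at most 15.2 CPM. The sum of 8 fibroblast markers, 3 of them tested, was 61.45 to 187 CPM in 2D and 32.7 to 102 CPM elsewhere. Of 7 immune markers, 4 had a row and 1, Cd68, was tested. Their sum was 30.7 to 36.6 CPM in Matrigel and 3.41 to 22.1 CPM elsewhere. Most of it in Matrigel was Cd68, with a mean of 32.9 CPM, beside 0.52 CPM of Ptprc. Acinar markers (5, of which 3 had a row and 1 was tested) summed to at most 20.4 CPM, endothelial markers (4, none tested) to at most 2.67 CPM, and the 1 of 5 islet markers with a row was at 0 in all libraries. The part of these cells or programs in the results was not tested.

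Among the genes of activation and entry, the acyl-CoA synthetases diverged. Acsl4 (chrX:142317993-142390535, - strand), which prefers arachidonic acid, had 70.1, 78.4 and 92.2 CPM as the lowest, median and highest values in 2D, 69.1, 57.7 and 65.7 CPM at day 7, and 44.5, 42.7, 41.2, 48.8 and 42.0 CPM in batch 1 collagen at day 13. It was lower at each of these steps without overlap. Matrigel had 60.2, 60.2 and 57.7 CPM, batch 2 collagen 57.0, 62.8 and 48.0 CPM, and KPC 72.8, 92.2 and 67.6 CPM. Batch 1 collagen was thus lowest, but batch 2 collagen overlapped with it and with Matrigel. Acsl4 fell by 0.55 ± 0.12 on the log2 scale from day 7 to day 13 (edgeR adjusted p = 0.00071) and was lower by -0.85 ± 0.11 at day 13 than in 2D (adjusted p = 8.15e-07). It was higher by 0.44 ± 0.13 in Matrigel (adjusted p = 0.0262), by 0.47 ± 0.14 in KPC (adjusted p = 0.0254) and by 0.35 ± 0.13 in batch 2 (adjusted p = 0.0462). The Matrigel call was lost without Matrigel replicate 1 (adjusted p = 0.115) or 2 (adjusted p = 0.101) and against both batches of collagen (0.30, adjusted p = 0.191), and the batch call was lost without batch 2 replicate 2 (0.27, adjusted p = 0.239).

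Acsl3 (chr1:78657825-78707743, + strand), a synthetase of the endoplasmic reticulum and lipid droplets, was the member that separated the batches most clearly upward. It had 106, 136 and 163 CPM as the lowest, median and highest values in 2D, 83.4, 91.8 and 82.7 CPM at day 7, 139, 132, 137, 172 and 176 CPM in batch 1 collagen, 304, 335 and 327 CPM in batch 2 collagen and 155, 176 and 184 CPM in KPC. The KC libraries of batch 2 lay above all others, and the KPC libraries of that batch overlapped with batch 1. The log2 difference was 1.09 ± 0.14 for batch 2 against batch 1 (edgeR adjusted p = 1.57e-06) and -0.91 ± 0.16 for KPC against KC (adjusted p = 0.000187), and the latter was -0.32 (adjusted p = 0.403) against the KC libraries of both batches. Acsl1 (chr8:46471037-46536051, + strand), known for triglyceride storage and oxidation alike, had 1.92, 3.34 and 5.82 CPM as the lowest, median and highest values in 2D and 6.87, 8.91 and 7.67 CPM at day 7. The groups did not overlap, at 4 to 6 counts and 14 to 23 counts a library. It was higher by 1.28 ± 0.39 on the log2 scale at day 7 (edgeR adjusted p = 0.00971), but the value was 0.73 (adjusted p = 0.199) with 2D replicates 1 to 3 alone.

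Of the carnitine shuttle genes, Slc25a20, Cpt1a and Cpt2 rose from day 7 to day 13, and Crat, a carnitine acetyltransferase, did not pass the test (-0.05 ± 0.14, edgeR adjusted p = 0.813). Slc25a20 (chr9:108662088-108684641, + strand), the carnitine-acylcarnitine carrier of the inner membrane, had 31.4, 33.3 and 29.8 CPM at day 7 and 75.1, 66.7, 70.8, 96.3 and 105 CPM in batch 1 collagen at day 13. Batch 2 collagen had 78.8, 95.5 and 72.0 CPM, Matrigel 42.5, 34.4 and 32.6 CPM and KPC 37.1, 38.9 and 41.7 CPM. All 8 KC collagen libraries of day 13 lay above every day 7, Matrigel and KPC library. The log2 difference was 1.39 ± 0.19 for day 13 against day 7 (edgeR adjusted p = 1.74e-06), -1.17 ± 0.19 for Matrigel against collagen (adjusted p = 0.00016) and -1.06 ± 0.22 for KPC against KC (adjusted p = 0.00108). In 2D it ran from 29.8 to 59.2 CPM, with replicates 1 to 3 above replicates 4 to 6. Cpt1a, the rate-limiting carnitine palmitoyltransferase of the outer membrane, rose by 0.63 ± 0.19 from day 7 to day 13 (edgeR adjusted p = 0.00798), with 51.5, 56.6 and 61.8 CPM at day 7 and 63.5, 79.6, 61.3, 109 and 127 CPM at day 13, where 1 library reached into the day 7 range. Cpt2, its partner in the inner membrane, rose by 0.87 ± 0.15 (adjusted p = 3.84e-05) without overlap, from 28.9, 32.9 and 28.6 CPM to 57.0, 59.5, 55.0, 40.3 and 64.6 CPM.

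In the mitochondrial cycle, Acadl (chr1:66830839-66863277, - strand), the long-chain acyl-CoA dehydrogenase, ran against its relatives. Acadl had 107, 115 and 126 CPM as the lowest, median and highest values in 2D, 99.5, 108 and 103 CPM at day 7, 79.3, 83.4, 66.5, 67.6 and 70.9 CPM in batch 1 collagen at day 13 and 104, 96.2 and 90.6 CPM in batch 2. It fell by 0.49 ± 0.11 on the log2 scale from day 7 to day 13 (edgeR adjusted p = 0.000426), was lower by -0.65 ± 0.092 at day 13 than in 2D (adjusted p = 4.45e-06; -0.43 by library size alone) and was higher by 0.40 ± 0.11 in batch 2 than in batch 1 (adjusted p = 0.00733), each without overlap. Acadm, the medium-chain dehydrogenase, had 64.7, 67.0 and 66.1 CPM at day 7 and 127, 130, 126, 128 and 142 CPM at day 13, and Acadvl, the very long-chain dehydrogenase, had 51.5, 73.6 and 58.4 CPM and 118, 124, 123, 107 and 104 CPM. Both rose without overlap, by 0.98 ± 0.10 (adjusted p = 2.32e-08) and 0.91 ± 0.15 (adjusted p = 2.31e-05). Acads, the short-chain dehydrogenase, had a difference of 0.02 ± 0.16 and did not pass the test. Echs1 (chr7:140105710-140116476, - strand), the short-chain enoyl-CoA hydratase, had 288, 334 and 401 CPM as the lowest, median and highest values in 2D and 191, 197, 202, 169 and 200 CPM in batch 1 collagen at day 13. The collagen organoids lay below 2D without overlap, at day 7 too (184, 177 and 175 CPM). The log2 difference from 2D was -0.92 ± 0.11 at day 7 (edgeR adjusted p = 5.52e-07) and -0.82 ± 0.094 at day 13 (adjusted p = 2.17e-07), and between day 7 and day 13 Echs1 did not pass the test.

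Hadha and Hadhb encode the α and β subunits of the mitochondrial trifunctional protein, and the ratio of their counts was examined after their values had been seen. Hadhb over Hadha was 0.99 ± 0.099 (SD, n = 6) in 2D, 1.08 ± 0.087 (n = 5) in batch 1 collagen, 1.08 ± 0.17 (n = 3) in Matrigel and 0.80 ± 0.12 (n = 3) at day 7. In batch 2 it was lower than in batch 1 at day 13, at 0.793, 0.554 and 0.715 in KC and 0.386, 0.344 and 0.523 in KPC. Day 7 libraries, at 0.863, 0.662 and 0.867, overlapped with batch 2 KC, and KPC libraries lay below all others. Hadha itself had 92.7, 96.9 and 101 CPM in batch 2 KC and 106, 113 and 90.8 CPM in KPC, whereas Hadhb had 73.5, 53.7 and 72.0 CPM and 40.9, 38.9 and 47.5 CPM. The levels of Hadha overlapped and those of Hadhb did not. The log2 ratio differed by -0.66 between the batches of KC collagen (2-sided exact permutation test, p = 0.0179; 0.0537 after Benjamini-Hochberg adjustment over 6 comparisons) and by 0.44 between day 13 and day 7 (p = 0.0179; adjusted p = 0.0537), and 0.0179 is the smallest p these group sizes allow. Between KPC and KC it differed by -0.73 (exact permutation p = 0.1, the smallest that 3 against 3 allows), and in the gene by gene test Hadhb was lower in KPC by -0.64 ± 0.17 (edgeR adjusted p = 0.00886), while Hadha did not pass. Between day 7 and 2D the exact p was 0.0357 (adjusted p = 0.0714). Matrigel and collagen differed by -0.01 (exact permutation p = 0.982), and day 13 and 2D by 0.12 (exact p = 0.19).

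**Figure D4:**
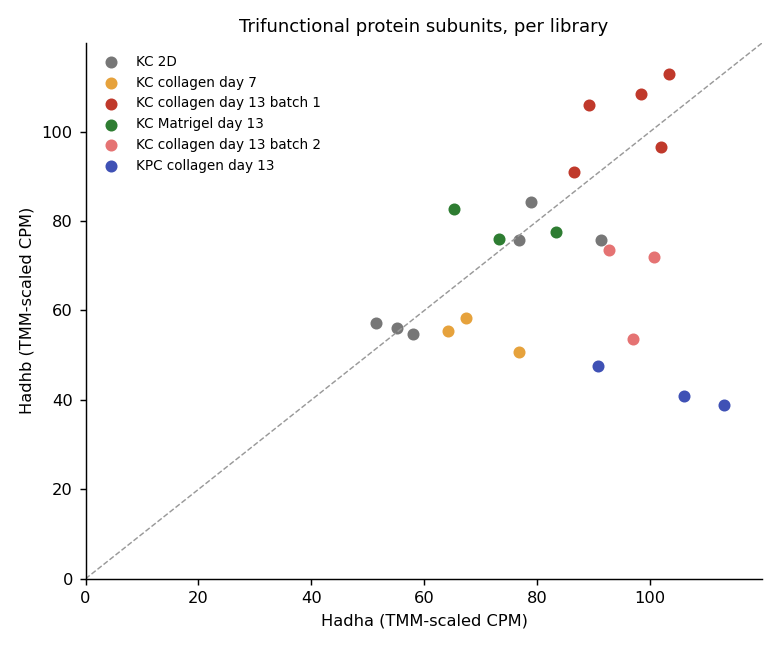
Hadhb against Hadha (both axes TMM-scaled CPM, linear, from 0) in the 23 libraries, coloured by group, with a dashed line at equal values. KPC and batch 2 KC libraries lie below the line, with ratios of 0.344 to 0.793, and so do the 3 day 7 libraries, at 0.662 to 0.867.

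Of the auxiliary and electron transfer genes, all 4 and all 3 were lower at day 7 than in 2D. Ech1 (chr7:28825217-28832247, + strand), a dienoyl-CoA isomerase, had 311, 328 and 361 CPM as the lowest, median and highest values in 2D, 175, 189 and 146 CPM at day 7 and 384, 386, 368, 411 and 443 CPM in batch 1 collagen at day 13. The 3 groups did not overlap, and Ech1 differed by -0.96 ± 0.11 on the log2 scale at day 7 from 2D (edgeR adjusted p = 3.91e-07) and by 1.23 ± 0.12 at day 13 from day 7 (adjusted p = 4.37e-09). Etfa and Etfb, the subunits of the electron transfer flavoprotein, and Etfdh, which passes its electrons to ubiquinone, each fell at day 7 against 2D (log2 -0.49 ± 0.10, -0.37 ± 0.11 and -0.45 ± 0.17) and each rose at day 13 (0.49 ± 0.11, 0.47 ± 0.11 and 0.82 ± 0.17). Etfa, whose upstream sequence is given above, had 233, 238 and 211 CPM at day 7, 317, 355, 302, 300.1 and 319 CPM in batch 1 collagen at day 13, 222, 231 and 226 CPM in Matrigel, 228, 241 and 248 CPM in batch 2 collagen and 199, 166 and 168 CPM in KPC. Batch 1 collagen lay above all 4 of the other organoid groups, and KPC lay below them. Etfdh (chr3:79603788-79629500, - strand) had 51.9, 49.9, 55.99, 46.6 and 46.2 CPM in batch 1 collagen and 29.8, 24.4 and 37.98 CPM in batch 2, without overlap, a log2 difference of -0.70 ± 0.17 (edgeR adjusted p = 0.00306).

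Peroxisomal members rose together at day 13. Acaa1b (chr9:119148023-119157093, - strand), a peroxisomal thiolase with a close copy in Acaa1a, had 7.07, 7.82 and 9.67 CPM as the lowest, median and highest values in 2D, 0.49, 5.04 and 4.69 CPM at day 7 (1, 13 and 11 counts), 18.6, 13.4, 20.6, 21.0 and 21.5 CPM in batch 1 collagen at day 13, 16.6, 23.7 and 24.7 CPM in batch 2 and 7.03, 11.97 and 16.9 CPM in KPC. Day 7 lay below 2D and 2D below collagen at day 13, without overlap, whereas KPC and KC overlapped. The log2 difference was -1.2002 ± 0.38 for day 7 against 2D (edgeR adjusted p = 0.0121), 2.40 ± 0.33 for day 13 against day 7 (adjusted p = 1.56e-06), 1.196 ± 0.25 for day 13 against 2D (adjusted p = 0.000441) and -0.83 ± 0.31 for KPC against KC (adjusted p = 0.0805). The first was -0.75 (adjusted p = 0.0751) without day 7 replicate 1. Reads shared by Acaa1a and Acaa1b could be split between them, so that their values are uncertain. Acaa1a, Hsd17b4, which carries out the middle steps of peroxisomal oxidation, and Pex11a, a factor of peroxisome division, rose by 0.66 ± 0.13, 0.38 ± 0.15 and 1.03 ± 0.32 from day 7 to day 13 (edgeR adjusted p = 0.00014, 0.0432 and 0.00978). Ehhadh, the peroxisomal bifunctional enzyme, was not tested. It had 0 counts in each of the 3 day 7 libraries and 5 to 15 in those of batch 1 at day 13, at least 2.84-fold higher than the mean CPM of 3 counts at day 7.

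The regulators differed in abundance. Pparg (chr6:115360951-115490399, + strand) was the PPAR of the set with counts to spare: it had 83.8, 110 and 134 CPM as the lowest, median and highest values in 2D, 237, 209 and 213 CPM at day 7, 236, 226, 239, 221 and 295 CPM in batch 1 collagen, 311, 337 and 265 CPM in batch 2, 172, 184 and 153 CPM in Matrigel and 357, 362 and 411 CPM in KPC. It was lowest in 2D, next in Matrigel and highest in KPC, without overlap of these 3 groups with others. Pparg was higher by 0.98 ± 0.14 on the log2 scale at day 7 than in 2D (edgeR adjusted p = 8.60e-06) and by 1.12 ± 0.13 at day 13 (adjusted p = 1.95e-07), and it was lower by -0.52 ± 0.15 in Matrigel than in collagen (adjusted p = 0.0306). KPC against KC gave 0.31 ± 0.17 and did not pass. Ppara had at most 7 counts in any library, and Pdk4, a kinase that restrains glucose oxidation, at most 2, and neither was tested. Angptl4 (chr17:33773750-33781830, - strand), a secreted inhibitor of lipoprotein lipase and a PPAR target, had 66.6, 87.6 and 91.7 CPM as the lowest, median and highest values in 2D, 124, 160 and 206 CPM at day 7, 134, 104, 105, 86.4 and 117 CPM at day 13, 108, 96.2 and 72.6 CPM in batch 2 and 181, 137 and 152 CPM in KPC. Day 7 lay above 2D, 1 library of day 13 reached into the day 7 range, and KPC lay above KC. Angptl4 fell by 0.58 ± 0.15 on the log2 scale from day 7 to day 13 (edgeR adjusted p = 0.00247), which was -0.38 (adjusted p = 0.0548) without day 7 replicate 3, and was higher by 0.76 ± 0.18 in KPC (adjusted p = 0.0041).

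The comparison of day 7 organoids with 2D cells asks what changes as cells grow branches in collagen. Of the 33 tested members, 7 were higher and 19 lower at day 7. Over all 11144 genes tested, 24.8% were higher and 26.4% lower. The median log2 fold change was -0.33 over the members and -0.02 over all genes. The lower members were 6 of 9 in the mitochondrial cycle, 4 of 4 auxiliary enzymes, 3 of 3 electron transfer genes, 2 of 4 tested peroxisomal genes, 3 of 8 in activation and entry (Acsl3, Acsl4 and Slc25a20) and Fabp1. The higher ones were Acsl1, Acsl5, Cpt1a and Crat in activation and entry, Fabp5, Pparg and Angptl4. With 2D replicates 4 to 6 alone, 4 were higher and 17 lower, and with replicates 1 to 3 alone, 7 and 15. Scaled by library size alone, 7 were higher and 7 lower, and this scaling moved the median of all genes to 0.14, so that the balance of directions rests on the scaling. The median over members is the same with Fabp5 at its lower bound. Beyond the members, 13 of 20 other mitochondrial oxidation genes fell and 0 rose, and 8 of 13 other peroxisomal oxidation genes fell and 0 rose (Crot, carnitine octanoyltransferase, by 1.98 ± 0.19, adjusted p = 1.82e-08). The mitochondrial list, here and below, also holds genes of branched-chain amino acid and propionate breakdown, such as Ivd and Pcca. It further holds Mcat, a gene of mitochondrial fatty acid synthesis. The peroxisome assembly list, here and below, also holds Pxmp2 and Pxmp4, which are peroxisomal membrane proteins and not assembly factors. In addition, 10 of 17 peroxisome assembly genes fell and 1 rose, 9 of 15 fatty acid synthesis genes fell and 2 rose, 8 of 12 other PPAR targets fell and 1 rose, 7 of 22 lipid droplet genes fell and 6 rose, 4 of 12 other PPAR regulators fell and 5 rose, 4 of 6 other uptake genes fell and 1 rose, and 2 of 5 ketone body genes fell and 1 rose.

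The comparison of day 13 with day 7 in collagen follows organoids from the extension phase to lumen formation. Here 21 of the 33 tested members rose and 4 fell, beside 27.1% and 28.1% of all genes tested. The median log2 fold change was 0.62 over the members and -0.01 over all genes. All 3 electron transfer genes rose, as did all 4 tested peroxisomal genes, 6 of 9 genes of the mitochondrial cycle (Acadvl, Acadm, Hadha, Hadhb, Hadh and Acaa2), 4 of 8 in activation and entry (Acsl3, Cpt1a, Slc25a20 and Cpt2), 2 of 4 auxiliary enzymes (Eci1 and Ech1), Fabp1 and Fabp2. The 4 that fell were Acsl4, Acsl5, Acadl and Angptl4. Day 13 shares its libraries with other comparisons below, and day 7 with the one above. Among the other lists, 11 of 13 peroxisomal oxidation genes rose and 0 fell. Of the mitochondrial oxidation genes, 12 of 20 rose and 1 fell (Mcat, the synthesis gene, log2 -0.36 ± 0.18, edgeR adjusted p = 0.0973). In the peroxisome assembly list 10 of 17 genes rose (the membrane protein Pxmp4 by 1.35 ± 0.18, adjusted p = 9.53e-07) and 1 fell (Pxmp2). Of the 12 other PPAR targets, 11 rose and 1 fell. That 1 was Plin2, a coat protein of lipid droplets, which fell by 0.80 ± 0.098 (adjusted p = 2.69e-07). In the lists of lipid droplet, synthesis, regulator, uptake and ketone body genes, 12 of 22, 7 of 15, 7 of 12, 3 of 6 and 3 of 5 rose, and 5, 3, 3, 0 and 1 fell. Among the regulators, Ppargc1b, a coactivator of mitochondrial genes, rose by 1.80 ± 0.25 (adjusted p = 2.02e-06).

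Set against 2D cells, organoids in collagen at day 13 had 22 members higher and 3 lower, beside 23.3% and 26.3% of all genes. The median log2 fold change was 0.36 over the members and -0.01 over all genes. With 2D replicates 4 to 6 alone, 18 were higher and 3 lower, and with replicates 1 to 3 alone, 21 and 5. All 4 tested peroxisomal genes, all 3 tested binding proteins, Pparg and Angptl4 were higher, as were 5 of 8 in activation and entry and 6 of 9 in the mitochondrial cycle. Acsl4, Echs1 and Acadl were lower. In electron transfer only Etfdh was higher, and among auxiliary enzymes only Ech1, of the 3 and 4 genes tested. Of the other genes, 9 of 13 in peroxisomal oxidation were higher and 3 lower, while 6 of 20 in mitochondrial oxidation were higher and 7 lower. In peroxisome assembly 5 of 17 were higher and 2 lower, among PPAR targets 7 of 12 and 3, among PPAR regulators 6 of 12 and 0, in lipid droplets 12 of 22 and 3, in synthesis 4 of 15 and 5, in uptake 3 of 6 and 2, and among ketone body genes 2 of 5 and 0.

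The matrix comparison sets organoids in Matrigel, which grow as spheres, against the branched organoids in collagen at day 13. In Matrigel, 1 member was higher (Acsl4) and 13 were lower than in batch 1 collagen, beside 6.62% and 6.29% of all genes. The median log2 fold change was -0.33 over the members and -0.01 over all genes. The lower members were Fabp1, Fabp2 and Fabp5, the carnitine shuttle genes Slc25a20, Cpt2 and Crat, Hadhb, Hadh and Acaa2 of the mitochondrial cycle, Etfa and Etfb, Hsd17b4 and Pparg. None of the 4 auxiliary enzymes passed the test. Of the lower members, Fabp1, Fabp5, Cpt2, Crat, Hadhb, Etfa, Etfb and Hsd17b4 were also lower in batch 2 than in batch 1 collagen. Fabp2, Slc25a20, Hadh, Acaa2 and Pparg did not pass between the batches, and Acsl4 was higher in both comparisons. Cpt2 differed by -0.45 ± 0.15 in Matrigel and by -0.44 ± 0.15 in batch 2, and Crat by -0.58 ± 0.15 and -0.51 ± 0.16. Both comparisons use the batch 1 collagen libraries. Without Matrigel replicate 1 there were 9 calls, all lower, against the collagen libraries of both batches 1 was higher and 8 were lower, and scaled by library size alone 1 was higher and 5 were lower. Matrigel libraries could be set only beside batch 1 within their own batch. Of the other genes, 4 of 13 in peroxisomal oxidation were lower and 0 higher (Cat, catalase, by -0.72 ± 0.12, adjusted p = 0.000223), 2 of 20 in mitochondrial oxidation, 1 of 17 in peroxisome assembly, 1 of 6 in uptake (Lpl, lipoprotein lipase, by -0.86 ± 0.22, adjusted p = 0.0122), 1 of 5 ketone body genes and 1 of 12 regulators (Ppargc1b by -1.28 ± 0.24, adjusted p = 0.000752) were lower and 0 higher. In synthesis 5 of 15 were lower and 2 higher, in lipid droplets 3 of 22 and 4, and among PPAR targets 2 of 12 and 2. One of the latter was Vnn1, a pantetheinase, which was higher by 1.52 ± 0.15 (adjusted p = 8.78e-08).

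KPC and KC organoids of batch 2 differed in both directions. In KPC, 7 members were higher and 6 lower, beside 9.58% and 10.4% of all genes, and the median log2 fold change was 0.09 over the members and 0.01 over all genes. The higher members were Fabp2, Fabp5, Angptl4, Acsl4, Acadl, Eci1 and Eci2, and the lower ones Fabp1, Slc25a20, Acsl3, Acaa1b, Hadhb and Etfa. Scaled by library size alone, 7 were higher and 3 lower. Eci2, an enoyl-CoA isomerase, had 67.1, 72.4 and 67.6 CPM in KPC and 38.4, 46.7 and 53.3 CPM in KC, without overlap, and its relative Eci1 had 105, 120 and 112 CPM and 81.5, 71.1 and 84.6 CPM, also without overlap. The log2 differences were 0.58 ± 0.19 (edgeR adjusted p = 0.0446) and 0.51 ± 0.12 (adjusted p = 0.00439). Of the other genes, 0 of 20 in mitochondrial oxidation were higher and 2 lower (Pcca, a propionyl-CoA carboxylase subunit, by -1.27 ± 0.17, adjusted p = 5.58e-06), 0 of 13 in peroxisomal oxidation were higher and 4 lower, 1 of 12 PPAR targets was higher and 6 lower (Vnn1 by -1.88 ± 0.20, adjusted p = 3.11e-07), 2 of 22 lipid droplet genes were higher and 5 lower, and 3 of 5 ketone body genes were higher and 1 lower. In synthesis 1 of 15 was higher and 3 lower, in peroxisome assembly 0 of 17 and 1, in uptake 0 of 6 and 3, and among regulators 0 of 12 and 2.

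**Figure D5:**
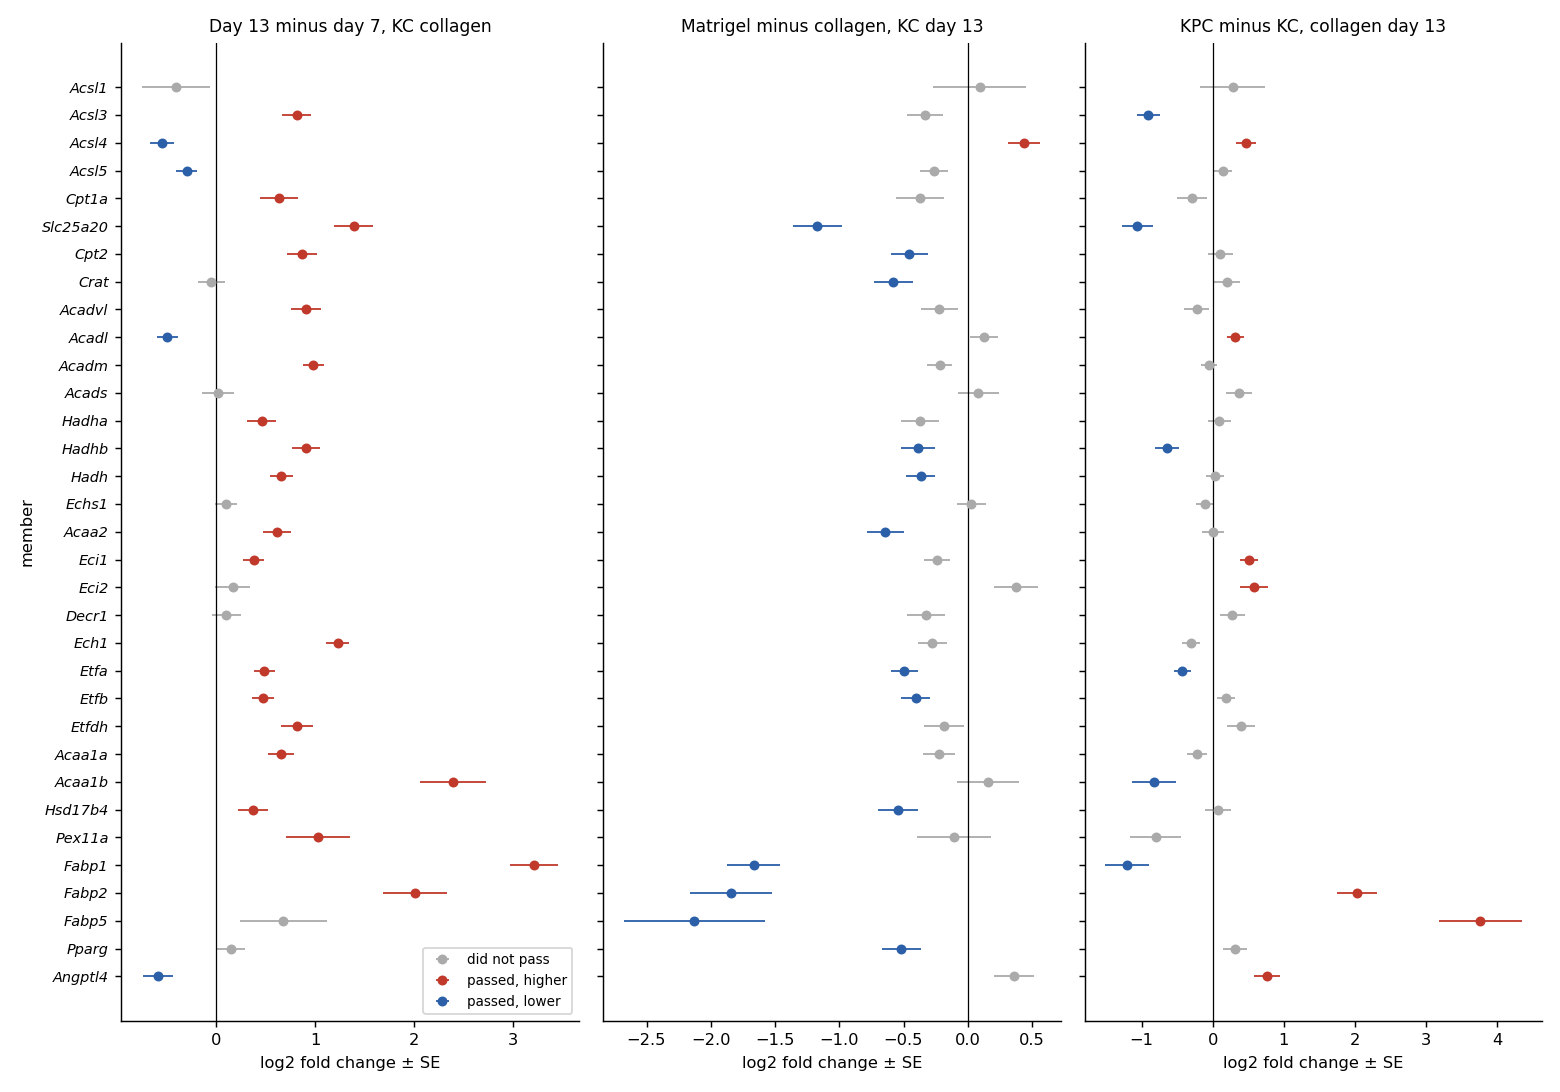
Log2 fold change (x axes, scales differ) ± SE of the 33 tested members (rows) for day 13 against day 7, Matrigel against collagen and KPC against KC. Red and blue points passed the edgeR test as higher and lower, and grey points did not. The left panel has 21 red and 4 blue points, the middle 1 and 13, and the right 7 and 6. The left and middle panels share the batch 1 collagen libraries of day 13.

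The batches of KC organoids in collagen at day 13, nominally the same condition, differed in 16 members. In batch 2, 3 were higher (Acsl3, Acadl and Acsl4) and 13 lower, beside 19.3% and 18.1% of all genes, with a median log2 fold change of -0.11 over the members and -0.05 over all genes. The lower ones were Fabp1, Fabp5, Etfa, Etfb, Etfdh, Hadhb, Acadvl, Crat, Cpt2, Acsl5, Eci1, Decr1 and Hsd17b4. Scaled by library size alone, 1 was higher and 13 lower, with DESeq2 size factors 5 and 12, and without batch 2 replicate 2 there were 10 calls, 2 higher and 8 lower. The share of mitochondrially encoded transcripts was 5.59% to 6.18% in batch 2 and 3.01% to 4.83% in batch 1, and its part in these differences was not tested. Of the other genes, 1 of 20 in mitochondrial oxidation was higher and 5 lower, in peroxisomal oxidation 2 of 13 and 6 (Scp2, a sterol carrier and thiolase, by -1.27 ± 0.12, adjusted p = 4.68e-08), in peroxisome assembly 1 of 17 and 6, in synthesis 1 of 15 and 5 (Fads2, a fatty acid desaturase, by -1.58 ± 0.27, adjusted p = 6.32e-05), in lipid droplets 6 of 22 and 2, in uptake 1 of 6 and 3, among ketone body genes 1 of 5 and 0, among regulators 3 of 12 and 4, and among PPAR targets 4 of 12 and 3.

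Of the 37 members, 15 overlap another gene of the table in GENCODE M21, and for 8 of these (Acsl3, Acsl5, Crat, Acadvl, Echs1, Etfdh, Acaa1a and Hsd17b4) the overlapping gene had 10 counts or more in some library. Whether the counting used strand is not given in the sources used here, so that their reads and those of the overlapping gene may not be fully separated. The largest such count was 201 for Zdhhc6 at Acsl5, and it was 191 for Paox at Echs1.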

How the data were processed

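RNA was measured in 23 libraries. The authors prepared libraries from the 3′ ends of transcripts with molecular identifiers (UMIs) and obtained UMI numbers per gene by running the Drop-seq pipeline against mouse genome GRCm38 with GENCODE genes. The deposited values are raw counts, not normalized. Here, edgeR 4.0.16 under R 4.3.3 fitted the 6 groups at once with TMM factors, and contrasts were tested by its quasi-likelihood F-test. Genes were kept by filterByExpr, which left 11144, and called at a Benjamini-Hochberg adjusted p under 0.1 over all of them. Log2 fold changes and their SE come from this fit. z scores used log2 CPM with a prior count of 2. With 3 to 6 libraries a group and totals of 1221451 to 2471058, low counts limit the precision, and intervals and the limit of 3 counts cover counting error only. Members and gene lists were chosen with earlier results of these data known, and no list was tested as a set. All members are named, and in each comparison the 3 called with the highest and the 3 with the lowest log2 fold change are described in full, other genes by the extremes of their list. Replicate numbers did not pair libraries (1 of 20 correlations above 0.1, from -0.12 to 0.19). Alternatives were DESeq2 1.42.0 and its size factors, library size alone, no filter, a stricter one (each library at 10 counts or more), an adjusted p under 0.05, compared groups alone, both collagen batches pooled, a replicate block, a prior count of 0.5, z scores over batch 1 alone or over every member with a count, and each library left out. The 2D sets were added after the data had been seen. The script was tested on simulated data. Some alleles and genes, and the check of the targeted gene, are not reported here.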

Additional observations from a re-analysis of the deposited data

Results flagged for a closer look

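The level of each of the 33 tested members, and the mean z score, were checked in the groups of 4 to 10 libraries, 68 checks in all, for a library far from the others by Dixon's criterion, which chance meets in about 1 of 20. It was met 6 times. In 2D replicate 1, Cpt1a stood at 23.63 CPM (others 41.4 to 48.01), Eci2 at 65.51 CPM (others 36.97 to 45.93) and Angptl4 at 66.58 CPM (others 82.45 to 91.68). In 2D replicate 2, Pex11a stood at 13.58 CPM (others 4.929 to 5.888). In replicate 5 of batch 1 collagen at day 13, Acadm stood at 142.4 CPM (others 125.9 to 130) and Pparg at 294.7 CPM (others 221.2 to 239.3).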

How the results depend on the processing

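On recomputation, 100 counts of called members stayed within 1.5 times the reported count and 6 did not. In Matrigel against collagen the count of 14 became 6 by library size alone, 9 without a filter and 9 with both collagen batches, and 9 to 15 when single libraries were left out (9 without Matrigel replicate 1). For day 7 against 2D the count of 26 became 14 by library size alone and 18 to 25 with single libraries left out. For batch 2 against batch 1 it was 10 to 16 (10 without batch 2 replicate 2). The causes were not tested. Ranges with single libraries left out were 24 to 25 for day 13 against day 7, 23 to 25 for day 13 against 2D and 10 to 12 for KPC against KC. Library size alone moved the median log2 fold change of all genes to 0.14 for day 7 against 2D, 0.20 for day 13 against 2D, 0.13 for KPC and -0.18 for batch 2, and differences of the mean z score to -0.11 for day 7 against 2D, 1.02 for day 13 against 2D, 0.47 for KPC, -0.49 for Matrigel and -0.62 for batch 2. Replicate numbers did not pair the libraries, and the replicate block gave 14, 25, 23, 26, 13 and 18 calls, in the order Matrigel, day 13 against day 7, day 7 against 2D, day 13 against 2D, KPC and batch. Among recomputed log2 fold changes of the members described in full, 574 kept direction and call, and 12 kept the direction but lost the call. Losses not given above were Acsl4 in Matrigel without a filter (adjusted p = 0.123), and Acadl (0.26, adjusted p = 0.17) and Acsl4 (0.21, adjusted p = 0.329) between batches by library size alone, and Acsl4 between batches without a filter (adjusted p = 0.183). Low counts limit what Ehhadh (0 to 15 a library), Fabp5 (0 to 35), Pex11a (5 to 27) and Acaa1b (1 to 61) can show.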
